A study of Mus musculus with 46 samples.

Results

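The 9 genes described here belong to the retinoid pathway and were chosen by symbol: Stra6, Aldh1a2, Dhrs3, Crabp1, Crabp2, Rarb, Rarg, Cyp26a1 and Cyp26b1. The choice was made with earlier results of these data known, so counts of members set against all genes are descriptions. All 9 had a row in the gene table, which holds 37108 genes, and in the table of transcripts, which held 35976 genes after transcripts were summed by symbol. RNA-seq had been made from mouse embryonic fibroblasts (MEF) during reprogramming by retroviral Oct4 with native Nanog (NanogWT) or with a fusion of Nanog and the BRG1-interacting domain of SS18 (NanogBiD, called NanogN70 in the labels). Per the paper, the fibroblasts came from E13.5 embryos of OG2 males, which carry an Oct4-GFP reporter, crossed to wild-type females of another strain. Every transduced group therefore carried retroviral Oct4, and the groups differed in the Nanog construct and the day after infection (sampled at D0, D1, D3, D5 and D7, and then at D8, D10 and D12). The paper set D0 at the end of the rounds of infection, so cells at D0 had already been exposed to the constructs. There were 31 time-course libraries, 15 with NanogBiD and 16 with NanogWT, with 2 libraries per construct and day except for a single NanogBiD library at D8. Untransduced MEF (2 libraries) and mouse embryonic stem cells (mES, 1 library, labelled OG2) served as references, and 12 samples of induced pluripotent stem cell (iPSC) lines, 6 per construct, were in the transcript table only. Among them the NanogWT samples 1# and 1#-2 may be the same clone by their names, so the 12 may not all be separate clones. Cells were kept in the medium iCD3 from D0 and moved to N2B27 with 2i and LIF after D7 or at a chosen time, and the mES and iPSC were grown in that second medium without feeders. Comparisons of days before and after this switch therefore cannot tell day and medium apart. The labels do not say which libraries came from separate cultures, so p-values measure the spread between libraries, which may be technical.

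Retinol reaches cells on its binding protein and enters through the receptor STRA6. It is oxidised to retinal and then, irreversibly, to retinoic acid by retinaldehyde dehydrogenases such as ALDH1A2, while DHRS3 reduces retinal back to retinol. CRABP1 and CRABP2 bind retinoic acid inside the cell, the latter passing it to the nucleus, where retinoic acid receptors (RAR) paired with retinoid X receptors bind direct repeats in the DNA. CYP26 enzymes break retinoic acid down. Rarb, Cyp26a1, Stra6, Dhrs3 and Crabp2 are known to be induced by retinoic acid itself, and retinoic acid is widely used to take embryonic stem cells out of pluripotency.

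The direct repeat bound by these receptors in the Rarb and Cyp26a1 promoters is a textbook element, and the promoters of the members were searched for it. The search used RefSeq windows on GRCm38.p6 (the assembly of mm10) that ran from 250 bases before to 50 bases after each annotated start. There were 14 windows of 8 members, without Crabp2. The repeat spaced by 5 bases (DR5) was searched as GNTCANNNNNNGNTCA on both strands. It was found in 2 of the 14 windows, 1 of Rarb and 1 of Cyp26a1, and in 0.861% of all 32851 promoter windows of that length. The repeats spaced by 2 bases (DR2, GNTCANNNGNTCA) and by 1 base (DR1, GNTCANNGNTCA) were found in 0 of the 14 windows and in 1.12% and 1.26% of all windows, so neither match overlapped another of the motifs. Both matches are shown 5′ to 3′ on the strand of the gene, with the repeat in capitals, because they are the 2 matches found.
Rarb: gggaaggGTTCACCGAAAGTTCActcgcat
Cyp26a1: ttaaagaTGAACTTTGGGTGAACtaatttg
The Rarb stretch is chr14:16575506-16575535 on the minus strand, and its repeat ended 36 bases before the RefSeq start. In the GENCODE annotation of the same assembly the same bases lie in the 5′ UTR of transcripts that start at 16575543 and 16575827. The Cyp26a1 stretch is chr19:37697769-37697798 on the plus strand, with the repeat 16 bases before the start used for the window and on the opposite strand, where it reads GTTCACCCAAAGTTCA. The RefSeq gene models of Rarb and Cyp26a1 also include starts further upstream, so both repeats lie inside the models. A match of letters is a description and not evidence of binding.

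Values are FPKM, in which fragments are divided by transcript length and by the mapped total of the library, so levels can be set side by side between genes. Differences are on the log2(FPKM + 1) scale, on which the changes of low genes appear too small, and a call needed both an adjusted p under 0.05 (Benjamini-Hochberg, over all genes tested) and a difference of at least 1 in size (2-fold). The total FPKM of the time-course libraries ranged from 370030 to 462190. Depth itself is not given, but relative depth could be read from the steps between low values. Relative to a D5 library, the 10 early NanogBiD libraries (D0 to D7) had a depth of 1.00 to 1.10, their 5 later ones 0.812 to 1.02 and the 10 early NanogWT libraries 0.875 to 1.06. The later NanogWT libraries, 6 in number, were the deepest at 1.86 to 3.19, so from D8 on depth and construct cannot be told apart. The summed level of 10 fibroblast markers (such as Col1a1, Thy1 and Twist1) was 5873 to 6819 FPKM in MEF and 12.4 in mES. The sum of 10 pluripotency markers (such as Esrrb, Zfp42 and Sox2) was 0.365 to 1.502 in MEF, with 8 of them at 0 in both libraries, and 3796 in mES. The labelled cell types therefore carried their defining markers.

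All 9 members passed the filter on low values in the time course (1 FPKM in at least 2 of 31 libraries), Cyp26a1 only through NanogBiD libraries. At D0 and D1 none of the 9 was called between the constructs, where 0.760% and 1.33% of the 16842 genes tested were called. By the same limma test, 1 member had an unadjusted p under 0.05 at D0 and 0 at D1. At D3 the 1 member called was Aldh1a2, against 3.70% of all genes. At D5, 5 members were called (Stra6, Aldh1a2, Dhrs3, Crabp2 and Cyp26a1) and at D7 Crabp1 joined them, all higher with NanogBiD. Since Cyp26a1 could pass the filter only where it was high, it lends no support to these counts, and without it 4 of the other 8 members were called at D5 and 5 at D7. The background was 6.48% of genes at D5 and 10.4% at D7. The median difference of the 9 members, Cyp26a1 included, was 1.03 at D5 and 1.79 at D7. That of all genes tested was 0.08 at both days. Without Cyp26a1, the middle values of the other 8 at D5 were 0.98 (Crabp1) and 1.03 (Dhrs3). At D7 they were 1.07 (Dhrs3) and 1.79 (Crabp1). Without NanogWT D5 replicate 1, the D5 count was 2 (Stra6 and Aldh1a2). At D10, 7 members were called, 4 higher (Stra6, Crabp1, Crabp2 and Cyp26a1) and 3 lower (Dhrs3, Rarg and Cyp26b1) with NanogBiD, or 6 without Cyp26a1. At D12, 5 were called, 3 higher (Stra6, Crabp1 and Crabp2) and 2 lower (Dhrs3 and Cyp26b1). In these late days 27.8% and 23.4% of all genes were called, with the deeper NanogWT libraries on one side of the comparison.

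**Figure D1:**
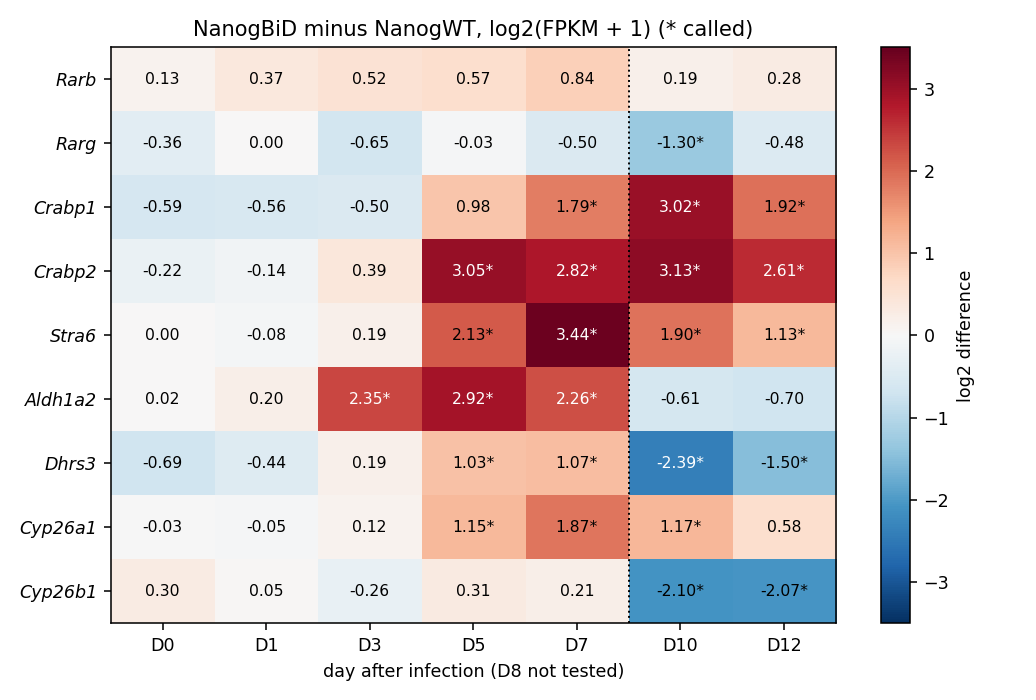
Difference between the constructs, NanogBiD minus NanogWT, in log2(FPKM + 1) for each of the 9 genes (rows) and each day with 2 libraries per construct (columns), with an asterisk where the difference was called. The dotted line stands between D7 and D10. The 6 differences called at D7 are all positive, and at D10 Dhrs3, Rarg and Cyp26b1 are negative.

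Stra6, the receptor for retinol uptake (chr9:58063793-58154004), had the largest difference of the 9 genes at D7. With NanogBiD it was listed at 0 in both libraries at D0 and stood at 5.44 and 6.51 FPKM at D5, 20.7 and 19.1 at D7, 21.2 in the D8 library, 4.52 and 5.09 at D10 and 1.30 and 2.67 at D12. With NanogWT it did not exceed 1.73 FPKM in any of the 16 libraries and was also listed at 0 in both at D0. The constructs did not overlap from D5 to D12, and the NanogBiD levels formed a peak at D7 and D8. At D7 the difference was 3.44 (SE 0.25, adjusted p = 7.97e-09), and the mean level was 20.4-fold higher. At D12 it had shrunk to 1.13 (SE 0.25, adjusted p = 0.00105), which fell short of the fold limit without NanogBiD D12 replicate 2 (0.79). MEF (0.156 and 0.0304 FPKM) and mES (0.0819 FPKM) both lay near 0. The Stra6 gene model overlaps that of Ccdc33, which did not exceed 0.250 FPKM in the time course.

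Aldh1a2, which makes retinoic acid (chr9:71215789-71296243), was the first of the members to differ. Its level with NanogBiD was 1.196 and 1.03 FPKM at D0, 30.9 and 19.5 at D3, 44.9 and 36.9 at D5, 33.7 and 39.4 at D7, 24.2 at D8, 7.02 and 8.82 at D10, and 4.57 and 6.78 at D12. With NanogWT it was 1.31 and 0.867 FPKM at D0, 3.99 and 4.05 at D3, 4.18 and 4.85 at D5, 6.39 and 7.31 at D7, 26.4 and 16.2 at D8, 10.4 and 15.0 at D10, and 8.12 and 11.6 at D12. NanogBiD libraries thus reached their highest levels at D5 and NanogWT libraries at D8, and at D8 the constructs overlapped. The difference was 2.35 at D3 (SE 0.26, adjusted p = 5.88e-06), 2.92 at D5 (SE 0.26, adjusted p = 2.22e-07) and 2.26 at D7 (SE 0.26, adjusted p = 2.75e-06). At D10 and D12 the NanogBiD libraries were the lower, by differences of -0.61 and -0.70 (SE 0.26, adjusted p = 0.0573 and 0.0333), neither of which reached the fold limit. The D3, D5 and D7 calls held in every alternative run. In both constructs the level at D7 was above that at D0, by 4.15 with NanogBiD (SE 0.26, adjusted p = 2.57e-10) and 1.91 with NanogWT (SE 0.26, adjusted p = 7.81e-06).

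Dhrs3, which returns retinal to retinol (chr4:144892534-144928209), was lower with NanogBiD at the first days, higher at D5 and D7 and lower again from D8. At D0 it stood at 0.737 and 1.38 FPKM with NanogBiD and 1.76 and 2.88 with NanogWT, without overlap but not called (-0.69, SE 0.21, adjusted p = 0.102). At D1 the libraries did not overlap either, with 0.444 and 0.464 FPKM against 0.987 and 0.956 (-0.44, adjusted p = 0.373). At D7 it stood at 6.04 and 5.08 FPKM with NanogBiD and 2.15 and 2.07 with NanogWT, and at D10 at 6.78 and 6.20 with NanogBiD and 41.9 and 34.7 with NanogWT. The D8 libraries already showed the later order, with 6.74 FPKM for NanogBiD against 16.8 and 21.1 for NanogWT. The NanogBiD level from D5 to D12 stayed between 5.08 and 10.3 FPKM, and the NanogWT level rose from D0 to D12 by 3.09 (SE 0.21, adjusted p = 9.92e-10). The difference between the constructs was 1.07 at D7 (SE 0.21, adjusted p = 0.000673), -2.39 at D10 (SE 0.21, adjusted p = 2.06e-08) and -1.50 at D12 (SE 0.21, adjusted p = 7.83e-06). The positive differences lay at the fold limit: the D5 value (1.03) dropped to 0.91 and the D7 value to 0.99 after quantile normalization. Without NanogBiD replicate 1 of the same day the D5 and D7 values were 0.98 and 0.97, and without NanogWT D5 replicate 1 the D5 value was 0.90. Dhrs3 overlaps Vps13d (1.16 to 6.93 FPKM in the time course), and the strand setting of the counting is not stated, so its level is uncertain to that extent.

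The late NanogWT libraries also differed in fibroblast markers. All 10 markers were called lower with NanogBiD at both D10 and D12, where 27.8% and 23.4% of all genes were called in either direction. Their summed level was 2440 to 3012 FPKM with NanogWT and 256 to 401 with NanogBiD at D12, against 605 to 663 and 287 to 432 at D7. No marker of this list was at 0 in all libraries of either construct. In these bulk samples fewer cells of a type and less RNA per cell cannot be told apart, and the part of the fibroblast markers in the late Dhrs3, Cyp26b1 and Rarg values was not tested.

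**Figure D2:**
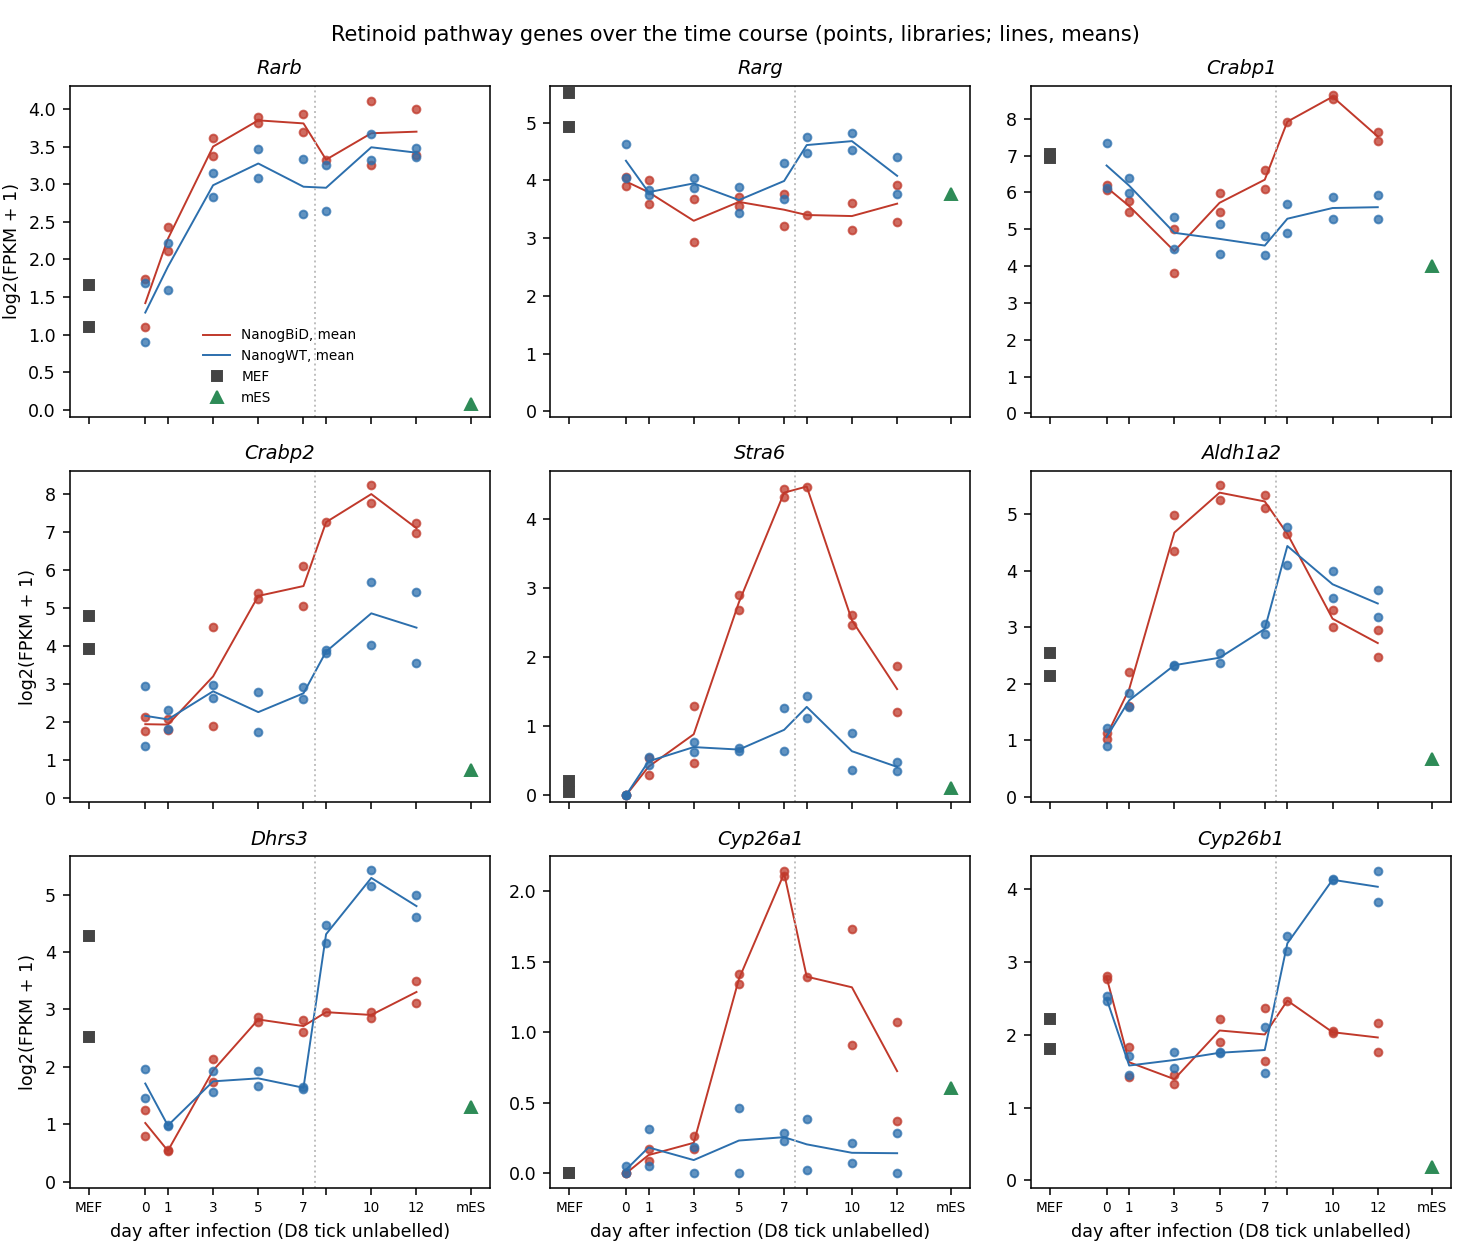
Level of each of the 9 genes in log2(FPKM + 1) by day after infection, with each library as a point, the mean of the log2 values of each construct as a line, and MEF and mES at either end. The dotted line marks the step from D7 to D8. With NanogBiD, Stra6 peaks at D7 to D8 and Cyp26a1 at D7, and with NanogWT both stay low. Dhrs3 and Cyp26b1 step up after D7 with NanogWT.

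Crabp1 and Crabp2, which encode the cellular retinoic acid-binding proteins, reached the highest levels of the 9 genes. Crabp1 (chr9:54764748-54773110) stood at 121 and 132 FPKM in MEF. With NanogBiD it passed from 72.7 and 66.4 FPKM at D0 through 31.1 and 13.0 at D3 and 96.5 and 66.9 at D7 to 242 at D8, 373 and 401 at D10 and 166 and 200 at D12. With NanogWT it was 162 and 68.3 FPKM at D0, 27.3 and 18.6 at D7, then 38.1 and 57.3 at D10, and finally 60.1 and 37.5 at D12. The NanogBiD libraries were above all NanogWT libraries of the same day from D5 on, and at D10 above every other group. The difference was 1.79 at D7 (SE 0.43, adjusted p = 0.00397), 3.02 at D10 (SE 0.43, adjusted p = 7.68e-06) and 1.92 at D12 (SE 0.43, adjusted p = 0.00105). With NanogWT, Crabp1 fell by 2.17 from D0 to D7 (SE 0.43, adjusted p = 0.000452), and the mean at D10 was 8.11-fold higher with NanogBiD than with NanogWT.

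Crabp2 (chr3:87948693-87953372) was at 26.8 and 14.1 FPKM in MEF and lower at D0, at 2.39 and 3.41 FPKM with NanogBiD and 6.75 and 1.62 with NanogWT. With NanogBiD it stood at 36.9 and 41.1 FPKM at D5, 67.4 and 32.5 at D7, 152 at D8, 216 and 298 at D10 and 124 and 149 at D12. With NanogWT it was 2.36 and 5.90 FPKM at D5, 6.59 and 5.07 at D7, 13.1 and 13.9 at D8, 15.4 and 50.6 at D10 and 42.0 and 10.7 at D12. The constructs did not overlap from D5 on. The replicates of this gene were the least alike of the members, with 21.9 and 2.72 FPKM for NanogBiD at D3, and its standard error was the largest. The difference was 3.05 at D5 (SE 0.71, adjusted p = 0.00491), 2.82 at D7 (SE 0.71, adjusted p = 0.00509), 3.13 at D10 (SE 0.71, adjusted p = 0.000881) and 2.61 at D12 (SE 0.71, adjusted p = 0.00443). The D5 call was lost without NanogWT D5 replicate 1 (2.53, adjusted p = 0.0822), the D7 call without NanogBiD D7 replicate 1 (2.30, adjusted p = 0.0621) and the D12 call without NanogWT D12 replicate 2 (1.67, adjusted p = 0.103), and only the D10 call held without any library of its day.

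Of the receptors, Rarb was called between the constructs at none of the days tested and Rarg only at D10. Rarb (chr14:16430839-17082331), whose product binds retinoic acid and whose promoter carries the repeat shown above, increased with both constructs. It was at 1.14 and 2.34 FPKM at D0 with NanogBiD and 0.858 and 2.23 with NanogWT, and at D7 it was at 11.9 and 14.3 and at 5.08 and 9.09. The increase to D7 was 2.39 with NanogBiD (SE 0.34, adjusted p = 1.04e-05) and 1.68 with NanogWT (SE 0.34, adjusted p = 0.000513), and to D12 it was 2.28 and 2.13. The NanogBiD libraries were above the NanogWT libraries from D3 to D8, by 1.85-fold in the means of D7, but no day passed the test (0.84 at D7, SE 0.34, adjusted p = 0.0705). The test of the difference between the increases to D7 gave 0.72 (SE 0.48, adjusted p = 0.356), so these data leave a range that includes no difference and a difference over the fold limit. MEF held 2.15 and 1.15 FPKM and mES 0.0547, so both constructs at D12, at 9.28 to 15.1 FPKM, were above both reference cell types. Several annotated pseudogenes lie within the Rarb gene model, which leaves its level uncertain to that extent.

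Rarg (chr15:102234938-102257522), the other receptor, is expressed both in fibroblasts and in pluripotent cells. It stood at 44.5 and 29.3 FPKM in MEF and 12.6 in mES, and all 31 time-course libraries lay below both MEF libraries, from 6.60 to 27.4 FPKM. It did not pass the test between D0 and D7 or D12 in either construct. At D10 it was lower with NanogBiD (11.3 and 7.86 FPKM) than with NanogWT (27.4 and 22.1), by a difference of -1.30 (SE 0.30, adjusted p = 0.00127). At the other 6 days the difference was between -0.65 and 0.00 and was not called.

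The catabolic enzymes went separate ways. Cyp26a1 (chr19:37697738-37701536) was low throughout: with NanogBiD it was listed at 0 in both libraries at D0 and stood at 1.53 and 1.67 FPKM at D5, 3.32 and 3.41 at D7, 1.63 at D8, 2.32 and 0.875 at D10 and 1.11 and 0.296 at D12. With NanogWT it did not exceed 0.381 FPKM in any library. The libraries did not overlap from D5 to D12, and at D7 the means were 17.3-fold apart. The differences were 1.15 at D5, 1.87 at D7 and 1.17 at D10, and they are given as a description, since the gene passed the filter through NanogBiD alone. They dropped to 0.91 at D5 without NanogWT D5 replicate 1 and to 0.76 at D10 without NanogBiD D10 replicate 1. It was listed at 0 in both MEF libraries and stood at 0.519 FPKM in mES.

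Cyp26b1 (chr6:84571414-84593908) differed only late and in the other direction. From D1 to D7 it ranged from 1.51 to 4.18 FPKM with NanogBiD and from 1.72 to 3.33 with NanogWT, and it was not called between them. At D10 it was at 3.05 and 3.15 FPKM with NanogBiD and 16.6 and 16.4 with NanogWT, a difference of -2.10 (SE 0.24, adjusted p = 4.17e-07). At D12 it was at 2.39 and 3.49 against 18.03 and 13.1, a difference of -2.07 (SE 0.24, adjusted p = 5.84e-07). The D8 libraries, with 4.54 FPKM against 7.92 and 9.25, showed the same order.

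The test of the courses themselves compared the change from D0 between the constructs, and shares its D0 and D7 or D12 libraries with the contrasts above. To D7, 6 members were called, all with the larger change with NanogBiD: Stra6 (3.44), Crabp2 (3.04), Crabp1 (2.38), Aldh1a2 (2.23), Cyp26a1 (1.90) and Dhrs3 (1.76), or 5 without Cyp26a1. The background was 10.1% of genes. To D12, 4 were called against 23.9% of genes, with Crabp2 (2.83), Crabp1 (2.51) and Stra6 (1.13) positive and Cyp26b1 negative (-2.37). The Crabp2 values were called at adjusted p = 0.0440 and 0.0320 and were lost in most alternatives, the D7 value for example without NanogWT D0 replicate 1 (2.25, adjusted p = 0.181). The Crabp1 value to D7 was lost without any of 3 libraries (NanogBiD D7 replicate 1, NanogWT D0 replicate 1 and NanogWT D7 replicate 2), where it was 1.77 to 2.12 with adjusted p between 0.0540 and 0.0674. The Stra6 value to D12 was lost without NanogBiD D12 replicate 2 (0.79) and without NanogWT D12 replicate 2 (1.06, adjusted p = 0.0589).

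Within the NanogBiD course, 6 members were higher at D7 than at D0 (Stra6, Aldh1a2, Crabp2, Rarb, Cyp26a1 and Dhrs3, so 5 without Cyp26a1), where 18.8% of genes were called in either direction. At D12, 6 were higher (Crabp2, Rarb, Dhrs3, Aldh1a2, Stra6 and Crabp1), against a background of 34.7%. Within the NanogWT course the counts were 3 at D7 (Aldh1a2 and Rarb higher, Crabp1 lower), against 17.7% of genes, and 6 at D12, against 16.2%. In both courses the contrast of D12 with D0 spans the switch of medium, so day and medium cannot be told apart in it. The members higher at D12 with NanogWT were Dhrs3 (3.09), Aldh1a2 (2.37), Crabp2 (2.32), Rarb (2.13) and Cyp26b1 (1.54), and Crabp1 was lower (-1.13, adjusted p = 0.0457). The call of Crabp1 was lost without NanogWT D0 replicate 1 (-0.52) or NanogWT D12 replicate 2 (-0.80), that of Crabp2 without NanogWT D0 replicate 2 (1.53) or NanogWT D12 replicate 1 (1.38), and that of Crabp1 at D12 with NanogBiD (1.38) without NanogBiD D12 replicate 2 (1.25, adjusted p = 0.0601).

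Some members already stood below untransduced MEF at D0. With NanogBiD, 4 members were lower at D0 than in MEF: Crabp2 (-2.40), Dhrs3 (-2.38), Aldh1a2 (-1.27) and Rarg (-1.23), against 11.4% of 16915 genes called. With NanogWT, 3 were lower: Crabp2 (-2.18), Dhrs3 (-1.69) and Aldh1a2 (-1.29), against 6.84%. The MEF libraries themselves differed for Dhrs3, at 18.4 and 4.73 FPKM. Without MEF replicate 1, the calls with NanogBiD were 2 (Dhrs3 and Aldh1a2) and with NanogWT 1 (Aldh1a2). The NanogBiD value of Crabp2 was also lost without NanogBiD D0 replicate 1 (-2.21, adjusted p = 0.0801), and the NanogWT value without NanogWT D0 replicate 2 (-1.40, adjusted p = 0.269).

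The likeness of patterns was described by Pearson's r over 18 points, the 16 time-course groups, MEF and mES, which share libraries, days and constructs. Among the members, the most alike were Stra6 and Cyp26a1 (r = 0.93), followed by Rarb and Aldh1a2 (r = 0.81), Dhrs3 and Cyp26b1 (r = 0.75) and Crabp1 and Crabp2 (r = 0.74). Many other genes were more like these members: Cyp26a1 ranked 14 for Stra6, Aldh1a2 266 for Rarb, Cyp26b1 254 for Dhrs3 and Crabp2 123 for Crabp1. Rarg and Cyp26a1 were the least alike (r = -0.57). Among all genes tested, the 3 most like Stra6 were Mc3r (0.97), Tdo2 (0.97) and LOC102638255 (0.96), and those most like Cyp26a1 were Vrtn (0.96), Gm33167 (0.95) and Rab27a (0.94). For Aldh1a2 they were Ryr3 (0.96), Cxcl14 (0.94) and Sypl2 (0.93), and for Rarb they were Tubb4a (0.95), Nrep (0.94) and Sncaip (0.93). For Crabp2 they were Pcbp4 (0.96), Zfp647 (0.94) and Hnrnpr (0.93), and for Crabp1 they were Fgfr2 (0.92), Stab1 (0.90) and Aif1l (0.89). For Dhrs3 they were Lgr5 (0.93), Rab3il1 (0.92) and Angpt4 (0.91), for Cyp26b1 they were Agtr1a (0.93), P3h2 (0.91) and Abi3bp (0.91), and for Rarg they were Arhgap23 (0.94), Tle2 (0.93) and Adamtsl3 (0.92). Tdo2, which encodes tryptophan dioxygenase, illustrates the Stra6 pattern with a mean of 13.0 FPKM at D7 with NanogBiD and 0.753 with NanogWT.

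The other genes of the pathway were taken from lists of receptors, carriers, enzymes, coregulators and targets, 46 genes in all, of which 34 passed the filter. At D7, 4 of the 34 were called between the constructs, 2 higher and 2 lower, and at D12 8 were called, 4 higher and 4 lower. These shares are near those of all genes (10.4% and 23.4%) and are not a result about the pathway. Their median difference was 0.04 at D7 and -0.05 at D12, and that of all genes was 0.08 and 0.17. The genes higher at D7 were both from the list of 9 targets induced by retinoic acid. Cdx1, a caudal-type homeobox gene, was at 35.3 and 29.6 FPKM with NanogBiD and 0.216 and 0.334 with NanogWT, a difference of 4.71 (SE 0.30, adjusted p = 9.25e-10). Hoxb1 was at 14.5 and 14.1 FPKM against 0 and 0.160, a difference of 3.83 that is given as a description, since Hoxb1 reached 1 FPKM in NanogBiD libraries only. Both homeobox genes were called at D5, D7, D10 and D12. For the same reason the Hoxb1 calls lend no support, and without Hoxb1 the gene higher at D7 was Cdx1. The pair lower at D7, named after their values were seen, were Dhrs9 (-2.01), a retinol dehydrogenase, and Nr2f1 (-1.71), an orphan nuclear receptor of the same target list.

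At D12 the targets higher with NanogBiD were Stra8 (1.89), a gene known from the entry into meiosis, Hoxb1 (1.74) and Cdx1 (1.13), while Tgm2, a transglutaminase, was lower (-1.18). Stra8, like Hoxb1, reached 1 FPKM only in NanogBiD libraries of the time course, so its call lends no support. Stra8 stood at 3.93 and 3.32 FPKM with NanogBiD, 0.0969 and 0.418 with NanogWT and 4.32 in mES. Cdx1 in mES was higher still, at 83.8 FPKM, whereas Hoxb1 was listed at 0 there. Of 12 other enzymes of synthesis that were tested, 3 were lower with NanogBiD and 0 higher: Aldh1a1 (-1.98), Adh7 (-1.53) and Rdh10 (-1.30), which oxidises retinol to retinal. This count is near the share of all genes at D12 (23.4%), and Adh7 passed the filter through NanogWT libraries alone, where it was high. Rdh10 was at 6.77 and 4.29 FPKM with NanogBiD and 16.4 and 13.4 with NanogWT. The coactivator Ncoa3 was higher (1.16) and the other 5 coregulators tested were not called, nor were the 3 receptors tested (Rara, Rxra and Rxrb) and the 4 carriers and storage proteins. From D0 to D12, 13 of the 34 were called with NanogBiD, 12 of them higher, against 34.7% of all genes, and 9 with NanogWT, all higher, against 16.2%. Of the 9 targets, 7 were higher at D12 than at D0 with NanogBiD and 5 with NanogWT. Hoxb1 and Stra8 passed the filter through NanogBiD libraries alone and Adh7 through NanogWT libraries alone. The counts from D0 to D12 therefore lend no support to a difference between the constructs.

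**Figure D3:**
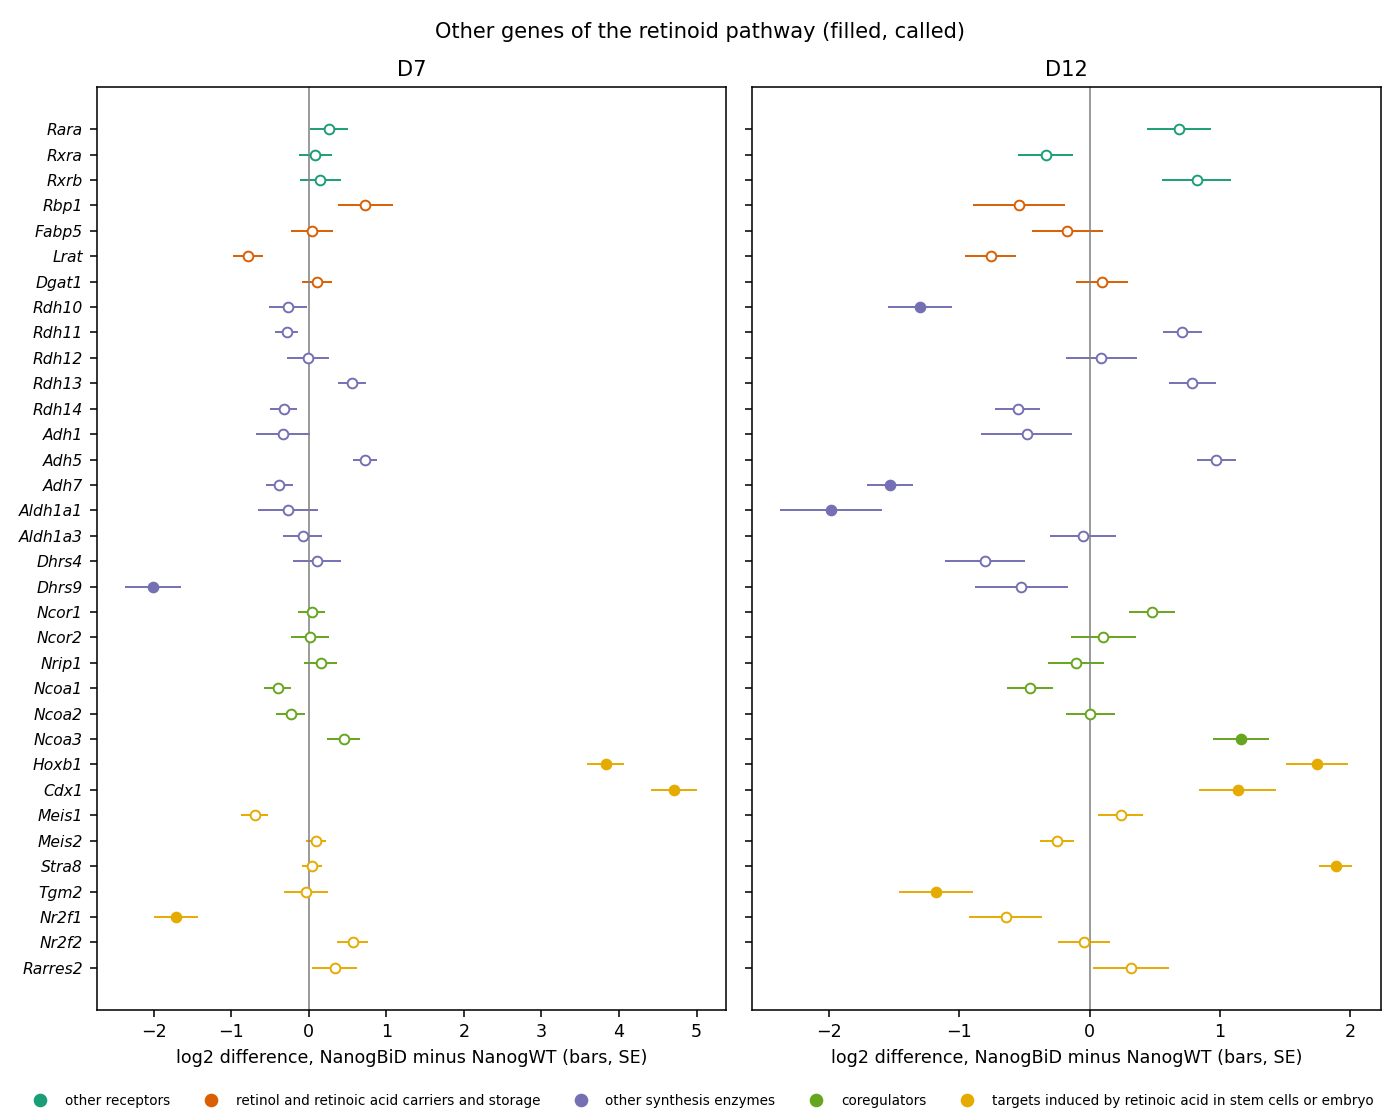
Difference between the constructs at D7 (left) and D12 (right) in log2(FPKM + 1) for the 34 other retinoid pathway genes that passed the filter, coloured by list, with bars for the SE and filled points where the difference was called. Cdx1 and Hoxb1 stand at 4.71 and 3.83 at D7, and Aldh1a1, Adh7 and Rdh10 lie at -1.98 to -1.30 at D12.

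Markers of other cell types also moved with the early differences. At D7, 8 of the 10 pluripotency markers were called higher with NanogBiD, with sums of 124 to 137 FPKM against 15.7 to 16.4 with NanogWT. Of the NanogWT libraries, both listed Dppa5a and Dppa4 at 0. Of 8 neural markers, 7 were tested, 2 were called higher (Neurog2 and Tubb3) and 1 lower (Sox1). Their sums were 173 to 241 FPKM with NanogBiD and 118 to 132 with NanogWT, with Olig2 at 0 in both NanogWT libraries. Of 6 epithelial markers, 4 were higher with NanogBiD at D7 and 6 at D10 and D12. Of all genes tested, 10.4%, 27.8% and 23.4% were called in either direction at D7, D10 and D12. The sum of 8 primitive endoderm markers was 6.32 to 8.17 FPKM with NanogBiD and 30.2 to 32.0 with NanogWT at D7, with Ttr at 0 in both NanogWT libraries. That sum was already 22.4 to 37.1 FPKM in MEF, and 27.2 to 28.2 with NanogBiD and 24.0 to 31.7 with NanogWT at D0. The NanogWT value at D7 therefore lay within the range of the starting fibroblasts. Of the 3 markers tested Dab2, which the paper treats as a somatic gene, was lower with NanogBiD. The part of these cell types in the retinoid gene values was not tested. For Stra6 and Cyp26a1 the levels in mES (0.0819 and 0.519 FPKM) were below both NanogBiD libraries at D7.

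In the iPSC lines the members were low with 1 exception. These samples are in the transcript table, which was normalised apart from the gene table, so they are compared only with the MEF and mES columns of that table. NanogBiD iPSC sample 9 stood apart, with a fibroblast marker sum of 1376 FPKM against 3.41 to 432 in the other 11 and a pluripotency marker sum of 2025 against 2921 to 5383. Rarg was the exception, at 13.6 to 37.7 FPKM (median 25.3, n = 12) in iPSC, 53.5 and 36.0 in MEF and 14.8 in mES. Crabp1 was at 2.16 to 9.00 FPKM (median 3.60) in iPSC against 134 and 142 in MEF, with 16.05 in mES above all 12. Aldh1a2 spread from 0.647 to 6.26 FPKM (median 2.43), which overlapped MEF (5.65 and 3.96), with 0.775 in mES. Crabp2 did not exceed 2.73 FPKM and Dhrs3 4.44, both in sample 9. The other 4, Stra6, Cyp26a1, Cyp26b1 and Rarb, did not exceed 0.754 FPKM in any iPSC sample.

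Between the constructs, 0 of the 5 members tested in iPSC were called by limma with the line as covariate, against 0.00% of 12456 genes. At an unadjusted p under 0.05 there were 0 members and 201 genes. The differences were between -0.28 (Crabp1, SE 0.26) and 0.18 (Crabp2, SE 0.25). The calls were 0 also without sample 9. Against MEF, 5 of the 7 members tested were lower in iPSC, where 40.4% of 13312 genes were called: Crabp1 (-4.81), Crabp2 (-3.59), Dhrs3 (-2.87), Cyp26b1 (-2.15) and Rarb (-1.48). The highest adjusted p of these was 1.44e-05 (Dhrs3). Rarb and Cyp26b1 passed the filter only through the MEF samples, where they were high, so their calls lend no support, and without them 3 of 5 were called. Rarg (-0.79, SE 0.27, adjusted p = 0.0180) stayed under the fold limit and Aldh1a2 (-0.76, SE 0.52, adjusted p = 0.201) did not pass the test. Without sample 9 the same 5 were called, with Dhrs3 at -2.99. Without MEF replicate 1 the calls were 3, since Rarb and Cyp26b1 no longer passed the filter.

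**Figure D4:**
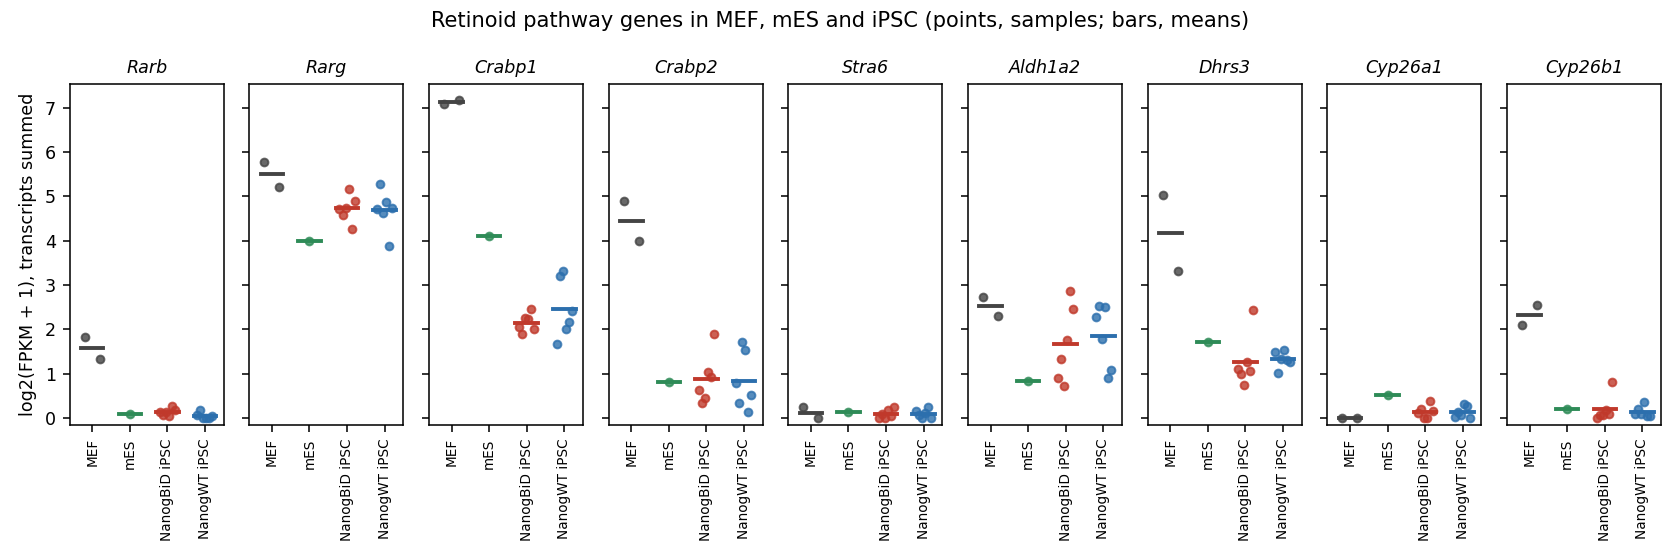
Level of each of the 9 genes in log2(FPKM + 1), with transcripts summed by symbol, in MEF (2 samples), mES (1) and the iPSC of each construct (6 each), with a point per sample and a bar at the mean. Rarg stays at 13.6 FPKM or more in every iPSC sample, while Crabp1 and Crabp2 lie far below MEF.

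A transcript of Rarg took a smaller share of the gene in both MEF samples than in any iPSC sample. Of 4 listed transcripts, NM_001042727.2 took 52.5% and 40.4% of the summed Rarg level in the MEF samples, 75.2% in mES and 56.8% to 98.8% (median 85.8%) in the 12 iPSC samples. Its MEF and iPSC ranges lay close but did not overlap. Those of other transcripts did: NM_011244.4 took 25.5% to 39.8% in MEF and 1.21% to 39.3% in iPSC. XM_006520650.1 took 19.1% to 21.0% in MEF and 0% to 28.0% in iPSC. These shares rest on the authors' assignment of shared reads to transcripts and were chosen for description after their values were seen, so no test is given.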

How the data were processed

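RNA-seq was measured in 34 libraries of the gene table (31 of the time course, 2 of MEF and 1 of mES) and in 15 samples of the transcript table (12 iPSC, 2 MEF and 1 mES). Per the submitters' processing notes, the authors trimmed reads with Trim Galore (0.6.4), aligned them to mm10 with HISAT2 (2.2.1) and quantified them with StringTie (2.2.1). The deposited values are FPKM with replicates kept apart. The annotation and the use of strand are not given in the sources used here. FPKM hold no counts, so no count model was used. Low values are whole multiples of a step, which gave the relative depth of the libraries from the most frequent ratio of the low values of NanogBiD D5 replicate 1 to those of each library. Depth of the transcript table is unknown.

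Groups were taken from the sample labels. A gene was tested where 2 or more samples reached 1 FPKM, by a two-sided limma test (3.58.1, in R 4.3.3, with the mean-variance trend) on log2(FPKM + 1), with a mean per group and Benjamini-Hochberg adjustment over all genes. All 16 time-course groups shared an estimate of the spread, MEF contrasts added the MEF libraries, and the iPSC contrast had the line as covariate. D8 was not tested. The fits were tested on simulated data. Alternatives were a replicate block, a pseudocount of 0.1, no filter, rescaling to a common total, quantile normalization, averaging of iPSC samples 1# and 1#-2, and leaving out each library. The members, lists and tests were chosen with earlier results of these data known. All 9 members are named. Other pathway genes are named where called at D12, at most 12 by size, and likeness names the 3 genes with the highest r per member. Gene positions and promoters were from RefSeq on GRCm38.p6, and transcript features from GENCODE vM21. Python 3.11.15 with numpy 2.4.6 and pandas 2.3.3 was used for tables and matplotlib 3.10.9 for plots. A gene of the target list is not reported here, and the counts are without it.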

Additional observations from a re-analysis of the deposited data

Results flagged for a closer look

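The change from D0 differed between the constructs by the test of the difference itself for 6 members at D7, where the differences of the log2 changes were 3.44 for Stra6, 3.04 for Crabp2, 2.38 for Crabp1, 2.23 for Aldh1a2, 1.90 for Cyp26a1, which passed the filter through NanogBiD alone, and 1.76 for Dhrs3. Of all genes, 10.1% differed in this way. At D12 it differed for 4 members, with 2.83 for Crabp2, 2.51 for Crabp1, 1.13 for Stra6 and -2.37 for Cyp26b1, against 23.9% of all genes. The Crabp2 values at both days, the Crabp1 value at D7 and the Stra6 value at D12 lost the call without 1 library or another.

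In the groups of 6 iPSC samples, a sample far from the others was found in 4 of 18 gene and group combinations by Dixon's criterion. Chance meets it in about 1 of 20 groups of normally distributed values. The FPKM here were not transformed, some lie near 0, and the combinations share the same samples, so the count is a description. NanogBiD iPSC sample 9 was the highest for Dhrs3 (4.44 FPKM, the next at 1.40), Crabp2 (2.73, the next at 1.04) and Cyp26b1 (0.754, the next at 0.124). Sample 1-2 of the NanogWT iPSC was the highest for Rarb at 0.126 FPKM, the next being 0.0436. Sample 9 was also the one with the highest fibroblast marker sum, 1376 FPKM, and its part in these values was not tested.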

How the results depend on the processing

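All 67 called member differences kept their direction in the 682 values computed under the alternatives, and 633 of these also kept the call. The 49 lost calls fell on 19 differences, 12 of which lost it only without 1 library, and 27 of the 49 were of Crabp2. The calls of Rarb, Aldh1a2 and Cyp26b1 were lost in 0 of the values computed, but without either MEF sample Rarb and Cyp26b1 no longer passed the filter for iPSC against MEF and gave no value.

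The counts of called members moved by more than 1.5 times in 4 cases, all without 1 library, and the other alternatives stayed within that factor. Leaving out each library in turn gave 2 to 5 members between the constructs at D5 (5 with all libraries), 2 to 4 for NanogBiD D0 against MEF (4), 1 to 4 for NanogWT D0 against MEF (3) and 3 to 5 for iPSC against MEF (5). For the last, the lowest count comes from fewer genes tested. For the others the cause was not tested. With the replicate block the counts were 0, 0, 1, 5, 6, 7 and 5 at D0, D1, D3, D5, D7, D10 and D12, the same as without it, and no call was lost. The labels do not say that replicate numbers pair libraries, and same-numbered libraries' deviations correlated at -0.065 to 0.39 over the 7 days, so the numbers are not treated as pairs.

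After quantile normalization 4 members were called at D5 and 5 at D7. Beyond that, 2 libraries a group, unknown depth, the deeper NanogWT libraries from D8 on and the switch of medium limit these values. Calls near the 2-fold limit, such as those of Dhrs3 at D5 and D7, depend on the scaling.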
